A study of Mus musculus with 12 samples.

Results

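Adipokines are factors that fat tissue releases into the circulation, and 10 of their genes were followed here in HER2-driven mouse mammary tumors and in benign tissue of the same transgenic line, MMTV/neu ndl-YD5. The members were taken by name as genes for adipocyte-secreted factors: Adipoq, Lep, Retn, Cfd, Rbp4, Angptl4, Angptl8, Nampt, Rarres2 and Agt. All 10 were among the 16411 genes of the deposited table, and all 10 passed the filter on low counts that left 13191 genes. RNA was sequenced from 6 tumors and 6 samples of benign tissue, which for transcriptomics came from different mice. The mice were heterozygous, untreated transgenic females on an FVB background, labelled MMTV-Neu-NDL-YD5, in which the MMTV promoter drives an activated HER2 (neu) receptor in mammary epithelium. The YD5 form keeps a single tyrosine add-back site on the receptor tail. Benign tissue was mammary tissue with no visible tumor, taken far from any tumor, so both groups carried the transgene and no group lacked it. The paper chose the site of benign tissue by where the tumors lay, so its body region can differ between samples. The labels give no age and no body site for a sample.

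The mammary gland of a mouse is a branched epithelium embedded in a fat pad. Adiponectin (Adipoq), leptin (Lep), adipsin (Cfd) and, in mice, resistin (Retn) are made chiefly by adipocytes, whereas visfatin (Nampt), angiotensinogen (Agt) and Angptl4 are also made by many other cells. The hormones act through receptors on distant or neighbouring cells, adipsin starts the alternative complement pathway, and Angptl4 and Angptl8 restrain lipoprotein lipase, the enzyme that frees fatty acids from circulating triglyceride. Whole tissue was sequenced, so fewer adipocytes and less RNA per adipocyte cannot be told apart.

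Total counts per sample lay between 5240853 and 8588567, with both groups spread over this range. Values are CPM, counts scaled to library size by the TMM method. Each gene was tested for a difference between the groups with edgeR (quasi-likelihood, two-sided), and p-values were adjusted by Benjamini-Hochberg over the 13191 genes. A gene was called at an adjusted p under 0.1. Erbb2, which encodes HER2, lay between 42.9 and 73.5 CPM in benign samples and between 1986 and 16611 CPM in tumors, so no tumor overlapped with a benign sample. Of 14 adipocyte markers, all 14 were lower in tumors, and their summed level was 13403 to 33647 CPM in benign samples and 284 to 474 CPM in tumors. The libraries labelled benign 3, 4 and 6 held between 2.99% and 7.28% of their counts in 10 skeletal muscle genes, against at most 0.040% in the other benign samples and 0.016% in tumors. Benign 4 also had 1397 CPM of Ucp1, the uncoupling protein of brown fat, and benign 6 had 204 CPM, while the other 4 benign samples had at most 39.2 CPM.

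Promoter sequences of 5 members are shown because they belong to genes that moved by very different amounts: adiponectin and leptin, which fell to at most 63 and 24 counts in a tumor, Angptl8, which fell to 0 counts, Nampt, which fell little, and Agt, which rose. Each is the 250 bases before the transcription start in RefSeq, on build GRCm38.p6, written 5′ to 3′ on the strand of the gene. Capitals mark matches on either strand to 5 motifs, with no mismatch allowed. The TATA box was searched as TATAAA. The CCAAT box was searched by the letters of its name, and the core motif of the C/EBP factors, which act in adipocyte differentiation, as TTGCNNAA. The core site of nuclear receptors was AGGTCA. The GC box, found in many promoters, was GGGCGG.
Adipoq: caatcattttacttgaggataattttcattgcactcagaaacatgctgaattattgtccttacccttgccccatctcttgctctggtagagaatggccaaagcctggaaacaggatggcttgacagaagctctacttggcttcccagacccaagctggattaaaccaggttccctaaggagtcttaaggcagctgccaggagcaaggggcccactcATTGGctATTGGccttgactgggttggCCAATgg
Lep: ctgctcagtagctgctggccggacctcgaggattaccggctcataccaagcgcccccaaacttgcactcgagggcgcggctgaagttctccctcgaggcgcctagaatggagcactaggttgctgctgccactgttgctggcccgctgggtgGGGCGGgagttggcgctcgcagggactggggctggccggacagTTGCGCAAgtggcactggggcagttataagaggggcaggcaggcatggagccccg
Angptl8: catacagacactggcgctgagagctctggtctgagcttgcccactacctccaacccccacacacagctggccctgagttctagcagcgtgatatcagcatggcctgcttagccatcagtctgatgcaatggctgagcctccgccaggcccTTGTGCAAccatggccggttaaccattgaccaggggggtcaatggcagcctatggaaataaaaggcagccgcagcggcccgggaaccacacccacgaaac
Nampt: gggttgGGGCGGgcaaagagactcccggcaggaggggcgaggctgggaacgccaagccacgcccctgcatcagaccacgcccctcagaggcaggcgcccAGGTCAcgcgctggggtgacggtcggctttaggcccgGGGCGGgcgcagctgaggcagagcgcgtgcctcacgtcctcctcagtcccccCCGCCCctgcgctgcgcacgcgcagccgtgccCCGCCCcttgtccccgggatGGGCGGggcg
Agt: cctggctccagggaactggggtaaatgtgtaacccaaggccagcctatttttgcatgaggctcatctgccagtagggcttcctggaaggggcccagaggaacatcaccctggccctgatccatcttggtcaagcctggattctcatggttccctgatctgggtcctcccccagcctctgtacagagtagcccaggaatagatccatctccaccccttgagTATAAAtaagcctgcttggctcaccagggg
They lie at chr16:23146286-23146535, chr6:29059971-29060220, chr9:21835260-21835509, chr12:32820085-32820334 and, on the minus strand for Agt, chr8:124569707-124569956.

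Adipoq holds CCAAT boxes at positions -34, -27 and -7 from the start, Lep a C/EBP core at -55 and a GC box at -98, and Angptl8 a C/EBP core at -100. Nampt holds 5 GC boxes and a core site at -151, and Agt a TATA box at -30. The Nampt window lies inside the gene as GENCODE annotates it, which begins at chr12:32819545, so its positions hold for the RefSeq start only. Of 32851 mouse promoters of the same length, 12.4% held the TATA box, 33.9% the CCAAT box, 9.56% the C/EBP core, 14.02% the core site and 32.7% the GC box. Promoter entries were found for 8 of the 10 members, and among them 3 held the C/EBP core, 3 the GC box, 2 the CCAAT box, 2 the TATA box and 1 the core site. The Retn and Cfd windows held no match. A match gives letters only and was not tested against any measurement. Rarres2 and Angptl4 were not matched.

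Of the 10 adipokines, 9 were lower in tumors and 1, Agt, was higher. Of all genes tested, 63% were called in either direction, 34.8% lower and 28.2% higher. For the 9 that fell, every tumor lay below every benign sample, a separation that 20.5% of all genes tested showed in that direction. The median log2 fold change of the 10 was -8.02 from fitted values, or -7.04 with Angptl8 placed at the bound that its 0 counts allow, beside -0.06 for all genes tested. A log2 fold change below -5 was found for 332 genes, 2.52% of those tested, and 7 adipokines had a fitted value in that range. The adipokines together took 0.313% to 0.565% of the counts of a benign sample and 0.0086% to 0.016% of those of a tumor. Nampt and Agt made up 2.77% to 4.70% of adipokine counts in benign samples and 64.3% to 86.4% in tumors.

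**Figure D1:**
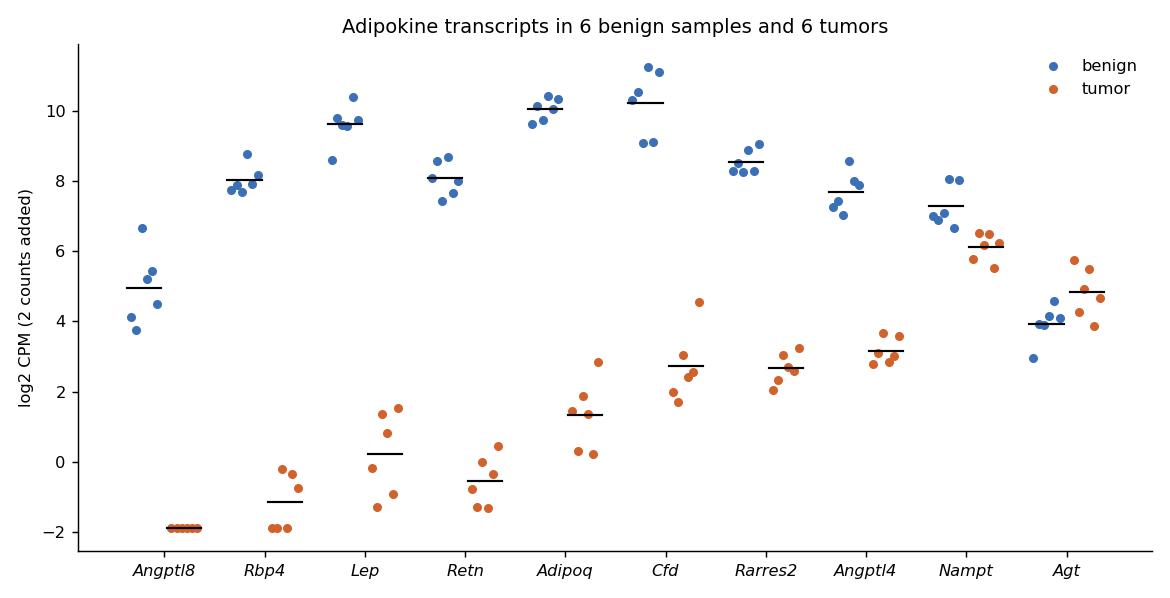
Level of each adipokine in log2 CPM, with 2 counts added, for 6 benign samples (blue) and 6 tumors (orange); each point is a sample and each bar a group mean. The tumors sit below all benign samples for 9 genes, while for Agt the groups overlap and 4 of 6 tumors lie above the highest benign sample.

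Levels of different genes were compared as CPM per kilobase of the principal transcript. In benign tissue adipsin was the highest at 1518 ± 857 CPM per kb, followed by Adipoq at 834 ± 178 and Rarres2 at 477 ± 119. Each of these neighbours overlapped in range with the next. Rbp4 at 287 ± 90.6, Lep at 255 ± 93.6 and Retn at 247 ± 84.3 CPM per kb could not be ordered beyond their spread. Angptl4 at 66.6 ± 27.9, Angptl8 at 44.8 ± 37.2 and Nampt at 37.0 ± 16.5 CPM per kb lay below them with no shared range and overlapped with each other, and Agt was last at 8.38 ± 2.73 (SD, n = 6 for all). In tumors Agt at 16.4 ± 7.99 and Nampt at 15.7 ± 4.01 CPM per kb, which had the lowest means in benign tissue, were at the top. They were followed by Cfd at 8.82 ± 8.30, Rarres2 at 7.92 ± 2.48, Angptl4 at 2.71 ± 0.75 and Adipoq at 2.18 ± 1.72 CPM per kb. Retn, Lep and Rbp4 lay between 0.256 and 0.426 CPM per kb in the mean, and Angptl8 had no counts. The ranges of Agt, Nampt, Cfd and Rarres2 all overlapped in tumors, and Cfd stood above Rarres2 only through tumor 6: without it they were at 5.51 ± 2.06 and 7.19 ± 1.92 CPM per kb (n = 5). The overlap of Cfd and Rarres2 with Nampt also rested on tumor 6. Without it Cfd reached at most 8.60 and Rarres2 at most 9.98 CPM per kb, and the lowest Nampt value was 10.03.

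Adiponectin, the insulin-sensitizing hormone of fat, is encoded by Adipoq (chr16:23146536-23158028, plus strand of GRCm38). Its level in benign samples was 789 CPM at the lowest, 1087 at the median and 1372 at the highest, and in tumors 0.893, 2.39 and 6.91 CPM. The lowest benign sample was thus 114-fold above the highest tumor, tumor 6. The means were 1077 ± 230 and 2.82 ± 2.22 CPM (SD, n = 6), a 382-fold difference with a log2 fold change of -8.59 (SE 0.52, adjusted p = 3.2e-08). Adipoq had the smallest spread of any adipokine among benign samples, with a coefficient of variation of 21.3%.

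Leptin, the satiety hormone whose level follows fat mass, is encoded by Lep (chr6:29060220-29073877, plus strand). Lep was at 389, 815 and 1339 CPM at the lowest, median and highest benign sample, and at 0.137, 1.05 and 2.63 CPM in tumors. In tumors these values rest on 1 to 24 counts per sample. The benign maximum was in benign 5 and the minimum in benign 1, whereas tumor 6 was again the highest tumor. The mean fell 672-fold, with a log2 fold change of -9.37 (SE 0.62, adjusted p = 7.3e-08).

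Resistin, which opposes insulin action in mice, is encoded by Retn (chr8:3655770-3660110, plus strand). Benign samples ranged from 171 through a median of 263 to 413 CPM, and tumors from 0.135 through 0.411 to 1.10 CPM, or 1 to 10 counts. The groups were far apart, with the lowest benign sample 156-fold above the highest tumor. The log2 fold change was -9.09 (SE 0.43, adjusted p = 4.9e-09).

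Adipsin, or complement factor D, is the serine protease that cleaves factor B in the alternative pathway; its gene Cfd lies at chr10:79890853-79892655 on the plus strand. It was among the most abundant adipokine transcripts in benign tissue and also the most uneven of the abundant ones. The lowest benign sample had 537 CPM, the median was 1360 CPM and the highest had 2413 CPM. In tumors the level was 3.02 CPM at the lowest, 5.37 at the median and 23.3 at the highest. Benign 3 and 5 were low, benign 4 and 6 high, and tumor 6 stood well above the other 5 tumors, which reached at most 7.93 CPM. The log2 fold change was -7.45 (SE 0.69, adjusted p = 1.3e-06), a 172-fold difference of means. Without tumor 6 the log2 fold change was -8.06, a 275-fold difference.

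Rbp4 (chr19:38116629-38125281, minus strand) encodes the retinol-binding protein that carries vitamin A in blood. Its lowest, median and highest benign values were 205, 238 and 432 CPM, and benign 4 was the highest. In tumors 3 samples had 0 counts and the other 3 had 3 to 5 counts, at most 0.601 CPM. The mean difference was 1119-fold, with a log2 fold change of -9.98 (SE 0.51, adjusted p = 8.1e-09). The tumor mean of 0.240 CPM lies below 0.392 CPM, the mean level of 3 counts in a tumor library. The size of the fall is therefore uncertain.

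Rarres2 (chr6:48569696-48572789, minus strand) encodes chemerin, a chemoattractant for immune cells that also acts on adipocytes. Benign samples had 303, 336 and 526.5 CPM at the lowest, median and highest, and tumors had 3.89, 5.97 and 9.21 CPM. The spread within each group was small, with coefficients of variation of 25.0% and 31.4%, and the log2 fold change was -5.94 (SE 0.27, adjusted p = 4.7e-09). Exons of Rarres2 overlap those of Lrrc61 on the opposite strand, and the strand setting of the counting is not given in the sources used here. Lrrc61 itself averaged 21.0 CPM in the benign group and 23.7 CPM in the tumor group.

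Angptl4 (chr17:33773750-33781830, minus strand) encodes a fasting-induced inhibitor of lipoprotein lipase. In benign tissue it was at 129, 203 and 380 CPM at the lowest, median and highest, and in tumors at 6.68, 8.01 and 12.4 CPM. Tumors kept a measurable level in every sample, and the 6 tumors varied less than the 6 benign samples (coefficients of variation 27.7% and 41.9%, a difference that was not tested). The mean fell 24.6-fold, with a log2 fold change of -4.65 (SE 0.30, adjusted p = 5.9e-08).

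Angptl8 (chr9:21835510-21837347, plus strand) encodes a feeding-induced partner of the angiopoietin-like lipase inhibitors. It had 94 counts or more in every benign sample, at 13.2 CPM at the lowest, 29.5 at the median and 100.1 at the highest, and 0 counts in every tumor. Taking 3 counts per tumor library as the floor, a mean of 0.392 CPM, the level was at least 98.7-fold lower in tumors (adjusted p = 5.3e-05, edgeR). The benign value of 100.1 CPM came from benign 3, and the other 5 benign samples reached at most 42.9 CPM. Angptl8 lies within Dock6 on the opposite strand, sharing no exon, and Dock6 was at 66.9 to 166 CPM in the same tumors.

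Nampt (chr12:32819545-32853349, plus strand) encodes the enzyme that makes nicotinamide mononucleotide, the rate-limiting step of NAD salvage, and is also released from fat as visfatin. Benign samples were at 101 CPM at the lowest, 131 at the median and 265 at the highest, and tumors at 45.4, 73.1 and 90.9 CPM. The groups did not overlap, but the lowest benign sample was only 1.12-fold above the highest tumor. The mean went from 168 ± 74.5 to 71.0 ± 18.2 CPM (SD, n = 6), a 2.36-fold fall with a log2 fold change of -1.28 (SE 0.28, adjusted p = 0.0019), and 18.1% of all genes tested fell at least as far. Benign 4 and 6 had 265 and 261 CPM, whereas the other 4 benign samples had 101 to 135 CPM. Without the 3 benign samples that held skeletal muscle transcripts, benign 3, 4 and 6, the log2 fold change was -0.66 (SE 0.21, adjusted p = 0.028), so Nampt was still called lower, by less. The part of muscle or brown fat in the difference was not tested beyond that fit.

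Agt (chr8:124556534-124569706, minus strand) encodes angiotensinogen, the precursor of the angiotensin peptides, made mainly by liver and also by fat. It was the adipokine that rose, from 15.9 ± 5.17 to 31.1 ± 15.1 CPM (SD, n = 6), a 1.96-fold increase with a log2 fold change of 0.93 (SE 0.33, adjusted p = 0.028). Benign samples had 7.53, 15.9 and 23.4 CPM at the lowest, median and highest, and tumors 14.4, 27.5 and 53.3 CPM. The groups overlapped, unlike those of the 15.5% of all genes tested with every tumor above every benign sample: tumors 1, 3, 4 and 6 lay above the highest benign sample and tumors 2 and 5 did not. Without benign 3, 4 and 6 the log2 fold change of Agt was 1.05 (adjusted p = 0.096). An exact two-sided permutation test of log2 CPM over all regroupings of the samples gave p = 0.032, against 0.00216, the smallest it can give, for each of the other 9 adipokines.

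The fall of most adipokines went together with that of the adipocyte markers, whose 14 log2 fold changes lay between -8.54 and -3.20 with a median of -7.25. Fabp4, the fatty acid carrier of adipocytes and the most abundant of these markers, went from 6184 ± 2519 to 28.1 ± 18.5 CPM. All 8 fibroblast and preadipocyte markers and all 6 endothelial markers were also lower, with medians of -3.34 and -3.01, and so were 5 of 7 macrophage markers, with a median of -0.52. The macrophage count was 4 under each of the 8 other settings and 3 to 5 when single samples were left out (3 without benign 2 or without tumor 1, 5 or 6). Of 10 epithelial markers, 7 were higher, among them Epcam, and 3 were lower, the keratins Krt19, Krt5 and Krt14. The part of this change of cell types in each adipokine's difference was not tested.

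**Figure D2:**
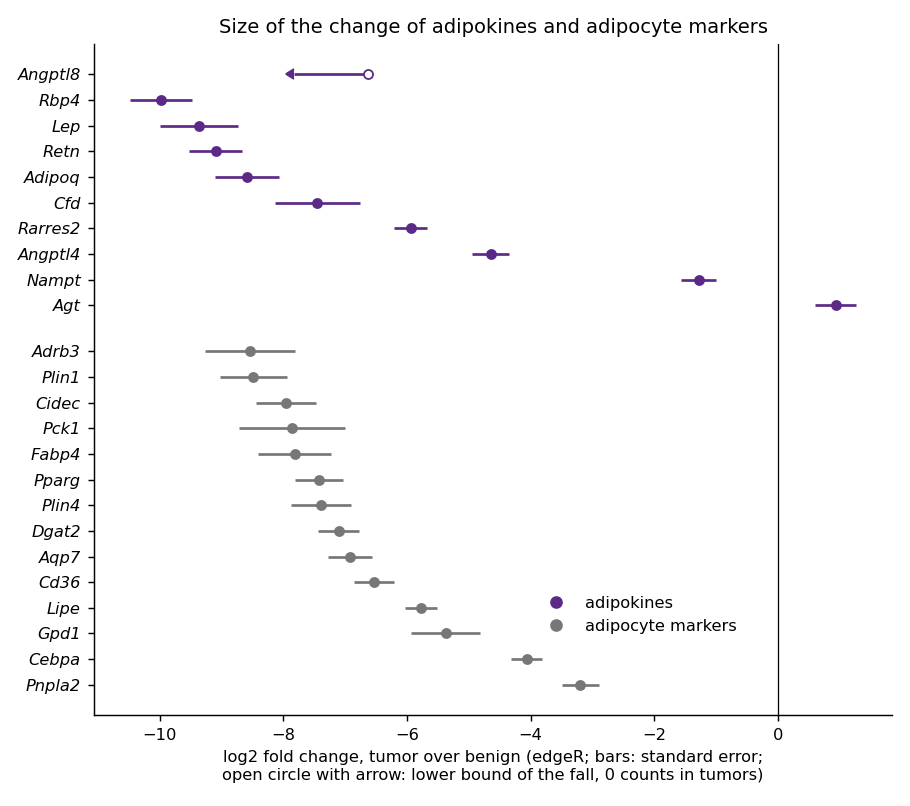
Log2 fold change of tumors over benign tissue for the 10 adipokines (purple) and 14 adipocyte markers (grey). Bars are standard errors derived from the edgeR fit. The open circle with an arrow is the bound for Angptl8, which had 0 counts in tumors. The markers span -8.54 to -3.20. Rbp4, Lep and Retn lie below that span, Adipoq (-8.59, SE 0.52) lies at its lower edge, and Nampt and Agt lie above it.

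To ask whether an adipokine changed by more or less than the fat markers of its own sample, the mean log2 CPM of the 14 markers was taken off its log2 CPM. The marker mean itself went from 9.65 ± 0.51 to 2.96 ± 0.57, a difference of -6.70. Relative to it, tumors differed from benign samples by -2.69 for Lep, -2.48 for Rbp4, -2.01 for Adipoq and -1.92 for Retn on the log2 scale, with all 6 tumors below all benign samples. Angptl4 fell less than the markers by 2.17 and Rarres2 by 0.82, and Nampt and Agt stood 5.53 and 7.59 higher relative to them, with all 6 tumors above all benign samples. The exact two-sided permutation test gave p = 0.00216 for each of these 8 genes, the smallest possible, among 10 tests. This compares a gene with the mean of the markers, whose own log2 fold changes ran from -8.54 to -3.20. A single marker can also lie off that mean, and single markers were not tested in this way. The test therefore cannot show a change beyond that of every fat marker. The size of the differences of these 8 adipokines rested on the choice of markers. With Plin1, Cidec, Adrb3, Aqp7 and Plin4 alone they were -1.57 for Lep, -1.36 for Rbp4, -0.89 for Adipoq and -0.80 for Retn, and 1.94 for Rarres2, 3.29 for Angptl4, 6.65 for Nampt and 8.71 for Agt. All 8 kept their direction.

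For Cfd the difference to the markers was -0.81, with 3 of 6 tumors below the benign samples (exact permutation p = 0.028). It turned to 0.32, and missed the threshold, with the same 5 markers. For Angptl8 it was -0.12 (exact permutation p = 0.851), and because its tumors had 0 counts this value is set by the 2 counts added before taking logs. The same addition draws the low tumor values of Lep, Retn and Rbp4 towards the markers.

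**Figure D3:**
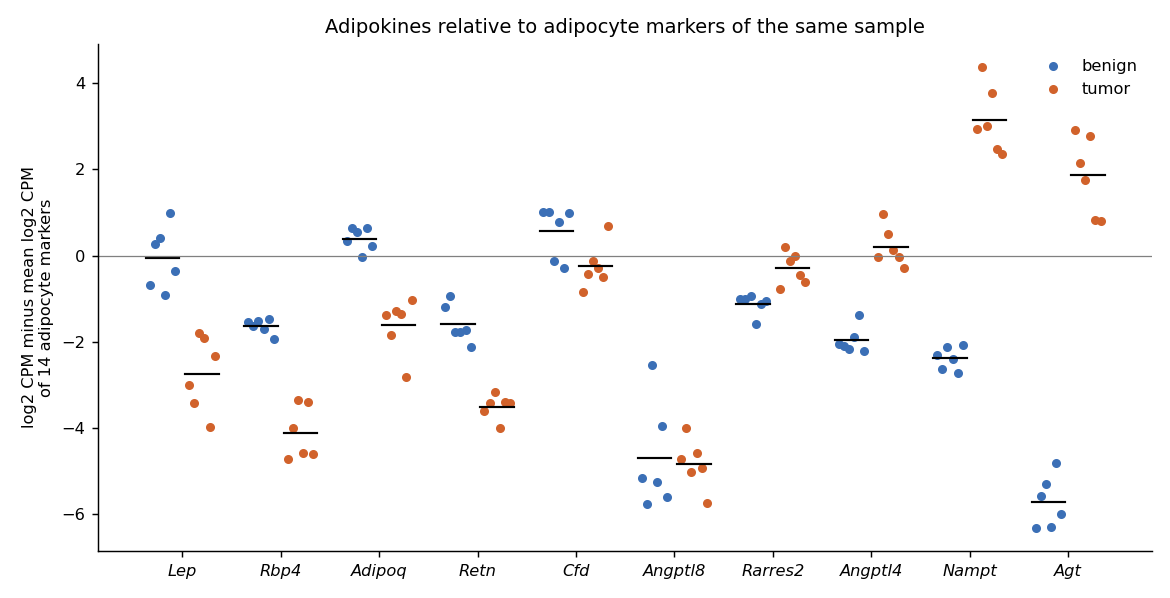
Log2 CPM of each adipokine minus the mean log2 CPM of 14 adipocyte markers in the same sample, for benign samples (blue) and tumors (orange), with group means as bars. Lep, Rbp4, Adipoq and Retn sit lower in tumors than in benign tissue, and Rarres2, Angptl4, Nampt and Agt sit higher, with no overlap of groups for these 8 genes.

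Within benign tissue the adipokines did not share a single order of samples. Benign 4 was the highest for 6 of 10 adipokines and for 13 of 14 adipocyte markers, whose summed level there was 33647 CPM, and it also held the 1397 CPM of Ucp1. Benign 3 was the lowest for 5 adipokines while highest for Angptl8, and benign 5 was highest for Lep and Agt. Among tumors, tumor 6 was the highest for 5 of the adipokines that fell and for 10 of the 14 adipocyte markers, and its summed level of all adipokines but Nampt and Agt was 55.2 CPM against 17.3 to 35.2 CPM in the other 5 tumors. The part of residual fat in the values of tumor 6 was not tested.

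**Figure D4:**
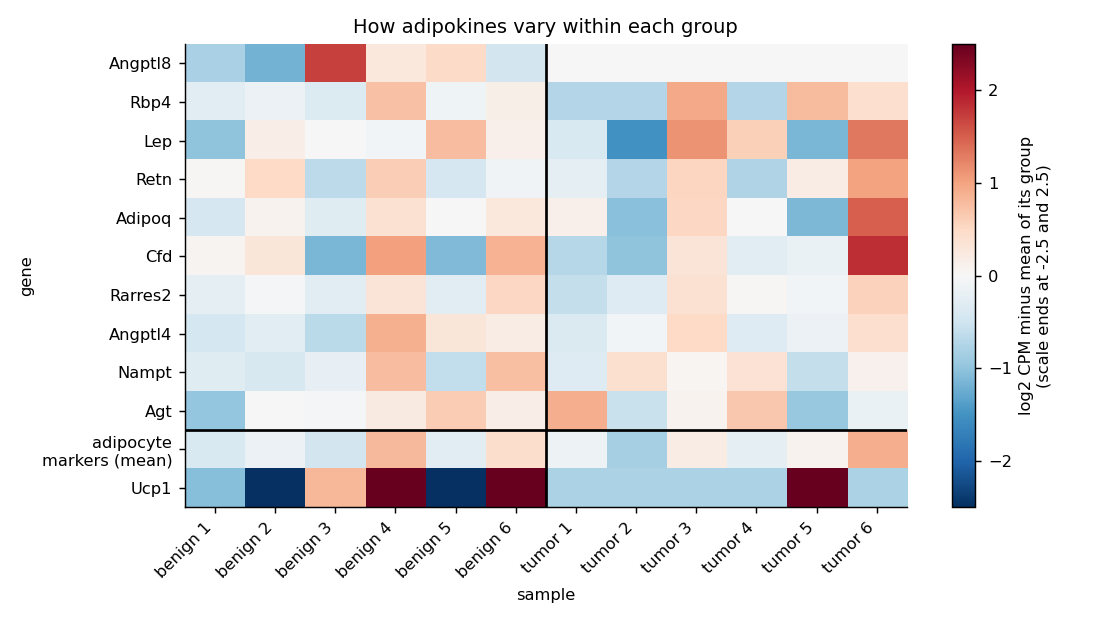
Log2 CPM minus the mean of its own group, for each adipokine, the mean of 14 adipocyte markers and Ucp1 (rows) in each sample (columns); red is above and blue below the group mean. Benign 4 and tumor 6 are above the mean of their groups for the adipocyte markers and for most adipokines.

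The genes whose deviations from the group means followed an adipokine most closely over the 12 samples were found among 10763 genes with at least 10 CPM in benign tissue. For Adipoq this was Cidec, a lipid droplet protein, with Pearson r = 0.915. Lep was nearest to Gnai1 (r = 0.949), Retn to Gpr182 (r = 0.932) and Rbp4 to Mrap (r = 0.912). Cfd and Rarres2 shared the nearest gene, Nnat, with r = 0.958 and r = 0.935. Angptl4 was nearest to Tmem205 (r = 0.883) and Angptl8 to Eef1e1 (r = 0.892). Nampt was nearest to Ccny (r = 0.969) and Agt to Tmed2 (r = 0.896), neither of which was called different between the groups. These values describe 12 samples that share their library depth and tissue makeup, and for Angptl8 they rest on the benign samples alone. Each is the highest of the correlations with 10763 genes over only 12 samples. How high such a best match comes out by chance was not tested, so a shared regulation cannot be read from it.

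Around the adipokines, 74 genes in 9 lists were followed, of which 53 could be tested. Of these, 28 were lower in tumors (52.8%) and 9 were higher (16.98%), with a median log2 fold change of -0.64. Of all 13191 genes tested, 34.8% were lower and 28.2% higher, with a median of -0.06, and the counts below stand beside these shares. Receptors and binding proteins were lower for 6 of 9 genes tested and higher for 1, with a median of -2.38. Adipor2, the adiponectin receptor that is prominent in liver, was lower, at 503 ± 158 CPM in benign tissue and 120 ± 12.4 in tumors (log2 change -2.11, adjusted p = 1.6e-06). Adipor1 had 224 ± 55.8 and 229 ± 10.4 CPM (log2 change -0.0053, SE 0.16, adjusted p = 0.981). Without benign 3, 4 and 6, Adipor1 was called higher, with a log2 fold change of 0.37 (adjusted p = 0.0099).

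Among the receptors of the other hormones, Lepr, the leptin receptor, fell from 8.88 ± 7.13 to 1.53 ± 0.78 CPM and Cmklr1, the chemerin receptor, from 100.1 ± 20.4 to 19.7 ± 14.7 CPM. Benign 1 had 22.8 CPM of Lepr, against 3.28 to 8.70 CPM in the other benign samples. Cap1, of the same list, had 261 ± 50.9 and 288 ± 89.2 CPM and was not called (adjusted p = 0.674 by edgeR). Ccrl2, which binds chemerin without signalling, rose from 6.54 ± 1.43 to 12.7 ± 2.21 CPM (log2 change 0.92, adjusted p = 0.0012), with every tumor above every benign sample. Agtr1a, the angiotensin II type 1 receptor, had the steepest fall of the list, from 54.8 ± 18.4 to 1.73 ± 0.61 CPM (log2 change -5.02, adjusted p = 3.4e-08).

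The lipase that Angptl4 and Angptl8 act on was also much lower: Lpl went from 4664 ± 941 to 24.9 ± 7.90 CPM (log2 change -7.58, adjusted p = 2.2e-09). Gpihbp1, which holds the lipase on the capillary wall, fell from 94.3 ± 29.2 to 4.68 ± 1.51 CPM. Lmf1 and Sel1l, which help the lipase fold in the endoplasmic reticulum, were higher, with log2 fold changes of 0.86 and 2.03. Tumor 5 had 1600 CPM of Sel1l against 197 to 475 CPM in the other tumors, and without it the log2 fold change of Sel1l was 1.33. Lipg, endothelial lipase, was at 3.20 ± 3.30 and 3.34 ± 0.90 CPM and was not called (log2 change 0.057, adjusted p = 0.931), but was called higher without benign 1, with 0.84.

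Of 5 tested enzymes and receptors that process angiotensin peptides, 2 were lower and 2 higher. Enpep, aminopeptidase A, fell from 53.5 ± 27.7 to 2.49 ± 0.995 CPM, whereas Anpep, aminopeptidase N, rose from 173 ± 51.2 to 1030 ± 399 CPM (log2 change 2.54, adjusted p = 2.4e-05). Ace, the angiotensin-converting enzyme, had 80.3 ± 21.2 and 80.7 ± 38.7 CPM (log2 change -0.028, SE 0.30, adjusted p = 0.945).

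Beside Nampt, 7 NAD genes were tested, of which 3 were lower and 1 higher, with a median of -0.38. Nnmt, which methylates nicotinamide and so removes it from salvage, fell from 55.0 ± 14.9 to 0.352 ± 0.147 CPM (log2 change -7.21, adjusted p = 3.0e-09). Nadk, which turns NAD into NADP, was the most abundant and fell from 265 ± 35.7 to 145 ± 42.5 CPM. Nmrk1 had 12.8 ± 1.97 and 12.1 ± 1.19 CPM (adjusted p = 0.515). Nadsyn1 was called higher at the edge of the threshold (log2 change 0.40, adjusted p = 0.0997), and the call was lost in 5 of the 12 fits that left out a sample, those without benign 3, 4, 5 or 6 or tumor 5. It was also lost with upper-quartile scaling (adjusted p = 0.112), without benign 3, 4 and 6 (adjusted p = 0.323) and at a threshold of 0.05.

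Of 5 genes of the alternative complement pathway, 3 were lower and 2 were not called by edgeR. C3, the central component, fell from 779 ± 173 to 37.5 ± 10.1 CPM (log2 change -4.41, adjusted p = 1.0e-08), and factor B (Cfb) and properdin (Cfp) had log2 fold changes of -2.01 and -2.25. The regulator Cd55 had 63.2 ± 16.6 and 97.9 ± 38.8 CPM and was not called (adjusted p = 0.129 by edgeR). It was called higher by DESeq2 (adjusted p = 0.091), with total-count scaling (0.079), with either other count filter (0.085 and 0.095), and without tumor 5 (log2 change 0.86), without benign 1 (0.74) or without benign 6 (0.70). C3ar1, the receptor for a fragment of C3, had 11.5 ± 2.67 and 13.3 ± 3.87 CPM (adjusted p = 0.539).

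Of the retinol genes, Dgat1, which also esterifies retinol, fell from 136 ± 55.8 to 30.7 ± 11.2 CPM (log2 change -2.19, adjusted p = 2.6e-05). The cellular carrier Rbp7 was not called (adjusted p = 0.414).

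Of 9 genes for C1q and TNF related proteins, the paralogs of adiponectin, 6 were lower and 2 higher, with a median of -2.57. C1qtnf9 had the steepest fall, from 55.9 ± 17.8 to 1.82 ± 0.64 CPM (log2 change -4.95, adjusted p = 2.8e-08). C1qtnf3 rose from 0.594 ± 0.481 to 6.16 ± 2.58 CPM (log2 change 3.27, adjusted p = 2.6e-04), with every tumor above every benign sample. C1qtnf12, the most abundant over both groups, had 52.6 ± 19.6 and 39.3 ± 9.77 CPM (log2 change -0.45, adjusted p = 0.129), and was called lower without benign 3 (adjusted p = 0.072).

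Other secreted factors of fat gave 5 lower, 1 higher and 5 not called, with a median of -0.56. Nrg4, the neuregulin released by brown fat, fell from 51.5 ± 19.8 to 0.356 ± 0.199 CPM (log2 change -7.12, adjusted p = 2.8e-08). Lcn2, lipocalin 2, rose from 155 ± 57.7 to 4616 ± 1527 CPM (log2 change 4.86, adjusted p = 4.7e-08), and the lowest tumor had 3632 CPM against 255 CPM in the highest benign sample. Grn, progranulin, had 292 ± 43.8 and 283 ± 70.9 CPM (log2 change -0.076, SE 0.17, adjusted p = 0.735).

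**Figure D5:**
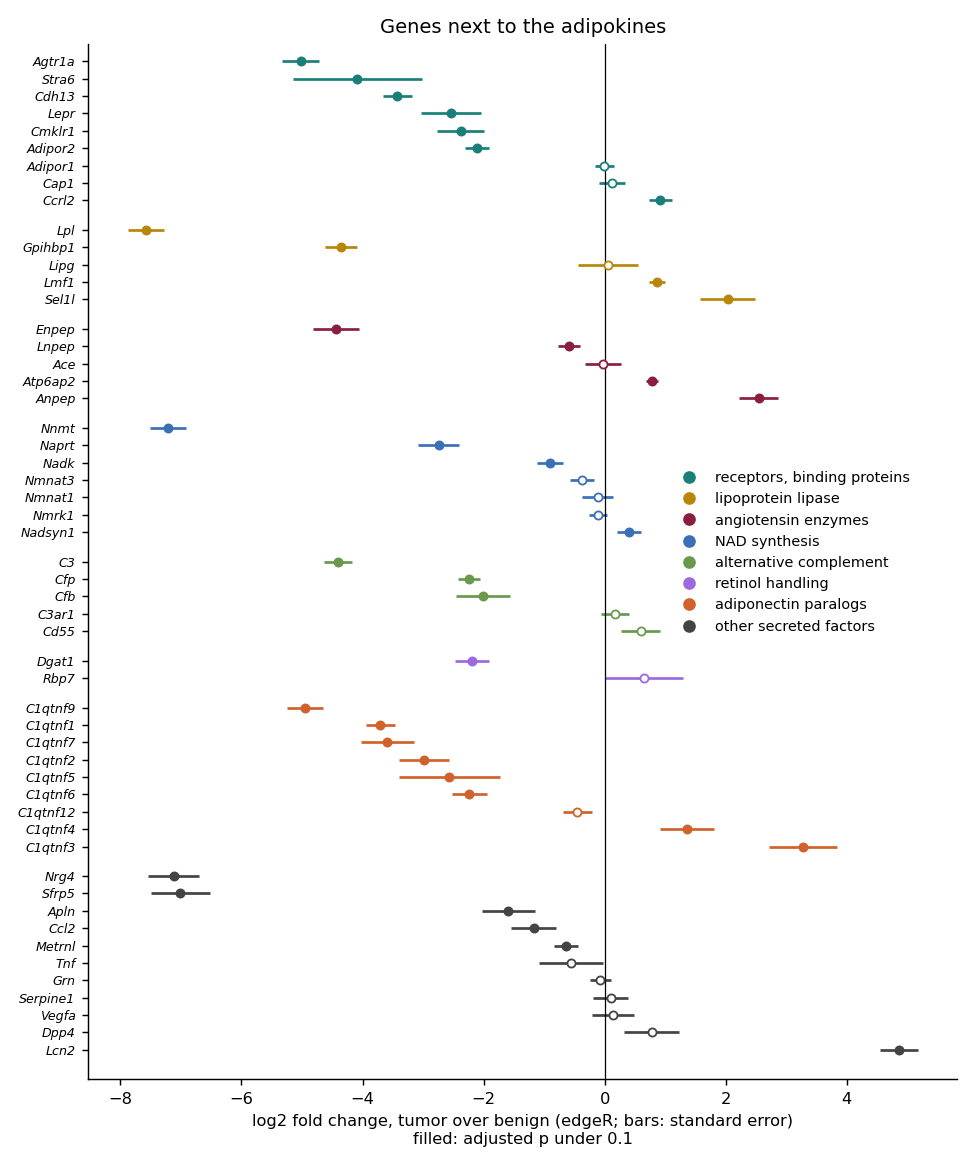
Log2 fold change of tumors over benign tissue for the tested genes next to the adipokines, coloured by list. Bars are standard errors derived from the edgeR fit, and filled points passed an adjusted p of 0.1. Lpl at -7.58, Nnmt at -7.21 and Nrg4 at -7.12 are among the lowest, and Lcn2 at 4.86 is the highest.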

How the data were processed

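RNA was measured by poly A RNA sequencing in 6 tumors and 6 benign samples, grouped by their labels. The authors trimmed reads with Trim Galore, quantified them with Salmon (build mm10 in the submitters' processing notes) and deposited expected counts per gene as whole numbers, not scaled for library size. Versions and the strand setting are not given in the sources used here. No column was without a sample (0 columns).

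From the deposited counts, genes were kept by filterByExpr (minimum count 10, minimum total 15), scaled by TMM and compared with edgeR 4.0.16 (R 4.3.3), with Benjamini-Hochberg adjustment over 13191 genes and a threshold of 0.1, after the paper. Log2 CPM used 2 added counts, and 3 counts were the floor, which covers counting error only. Standard errors were derived from the edgeR fit, as the absolute fitted log2 coefficient over the square root of the F statistic. Exact permutation tests used scipy 1.17.1. The smallest chi-square per degree of freedom between replicates was 12.5, so none was a duplicate. The study describes the 6 samples of a group as biological replicates. The edgeR p-values weigh the difference between the groups against the spread between these replicates. Gene positions and transcript lengths came from GENCODE M21 (GRCm38), and promoters from RefSeq (GRCm38.p6).

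The members and lists were chosen with earlier results of these data known. Some genes are not reported here. All members were named; of a partner list of up to 6 genes every gene, and of a longer one the called genes with the largest rise and fall, the most abundant and the least changed. Lepr and Cmklr1 were named for their roles, and Cap1 beside them, after their values were seen. Of cell type lists, the most abundant gene and those called against the direction of the list were eligible.

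Alternatives were DESeq2 1.42.0, upper-quartile and total-count scaling, filters of 1 count in total or 10 counts in every sample, a threshold of 0.05, a replicate block, leaving out each sample, leaving out benign samples with over 1% muscle counts, 5 adipocyte markers, and 5 added counts. The tests were tried on simulated data.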

Additional observations from a re-analysis of the deposited data

Results flagged for a closer look

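For each adipokine and group the highest or lowest of the 6 samples was compared with the rest. Dixon's ratio of the gap to the whole range was taken on CPM (critical value 0.625). Of 19 groups, 3 stood out, each by its highest sample. The critical value assumes normally distributed values, and CPM can be skewed towards high values. The number of groups that stood out was therefore not compared with chance, and log2 CPM was not tested in this way. Cfd in tumor 6 was at 23.3 CPM, with a ratio of 0.758. Rbp4 in benign 4 was at 432 CPM, with a ratio of 0.640. Angptl8 in benign 3 was at 100.1 CPM, with a ratio of 0.659. Tumor 6 was also the highest tumor for 10 of 14 adipocyte markers, and benign 4 the highest benign sample for 13 of them, while benign 3 was the highest for 0 of them.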

How the results depend on the processing

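With at least 10 counts in every sample, 4 adipokines, 18 partner genes and 8 adipocyte markers were called lower, against 9, 28 and 14, because genes with few counts in tumors are no longer tested. With the replicate block 0 adipokines were higher, since Agt (log2 fold change 0.84, adjusted p = 0.117) lost its call, as did Nadsyn1 (adjusted p = 0.141). Same-numbered samples had correlations of -0.125 to 0.103, and no sample correlated best with its own number. Low correlations alone cannot exclude pairing. The paper states that its tumor and benign samples for transcriptomics were from different mice. The other settings gave 9 adipokines lower and 1 higher, as did all 12 fits without a sample, in which the log2 fold change of Agt lay between 0.77 and 1.14. Without the benign samples that held muscle counts, the difference to the adipocyte markers was -0.82 for Cfd and no longer passed the threshold with 3 benign samples left. That difference turned to 0.32 for Cfd with 5 markers. For Angptl8 it turned to 0.996 with 5 markers, 0.97 with 5 counts added and 0.12 without those benign samples, and without single samples lay between -0.33 and 0.31; its tumors have 0 counts, so the counts added set this value. Rbp4, Lep and Retn rest on at most 24 counts in a tumor, which limits the precision of their fold changes. Scaling by total counts moved the median of all genes from -0.06 to 0.03.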

Other observations

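Rbp7, a cellular retinol-binding protein, differed widely among tumors: tumors 4 and 6 had 5.79 and 4.49 CPM, tumors 1 and 2 had 56.6 and 66.6 CPM, and tumors 3 and 5 had 124 and 130 CPM, while benign samples had 31.5 to 56.2 CPM. Stra6, the receptor for the retinol-binding protein, had 3.44 CPM in tumor 5 and at most 0.219 CPM in the other 5 tumors, and its log2 fold change went from -4.09 to -6.85 without tumor 5. Both genes were singled out after their values were seen.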
